A study of Rattus norvegicus with 12 samples.

Results

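Neonatal rat cardiomyocytes that received JQ1 together with phenylephrine (PE) were compared with cells that received PE and the solvent DMSO. Libraries were taken by their titles, 2 with PE and JQ1 against 2 with PE and DMSO, and replicates 1 and 2 were paired by number. These 4 libraries belong to a series of 12, in 6 groups of 2. Cells were treated for 24 h with PE at 10 µM, with endothelin-1 at 100 nM (ET-1, a peptide agonist) or with the acetic acid vehicle, and each of these was combined with JQ1 at 1 µM or with DMSO. Heart muscle cells of Sprague-Dawley rats 1 to 3 days old were plated at 40000 per cm2. All groups shared 24 h in 7% serum and earlier exposure to AraC (10 µM), a nucleoside that stops dividing cells, which was withdrawn 24 h before treatment. The labels name neither separate cultures nor separate litters behind the replicate numbers, so p-values measure only how far these samples spread, and that spread may be technical.

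PE activates alpha-1 adrenergic receptors, which signal through Gq proteins, phospholipase C, protein kinase C and the ERK pathway, and it is a standard agonist for cardiomyocyte growth in culture. JQ1 occupies the bromodomains of the BET proteins, Brd2 and Brd3 among them, and displaces them from acetylated chromatin. BET proteins help to recruit P-TEFb (Cdk9 with cyclin T), the kinase that releases paused RNA polymerase II, and Hexim1 with 7SK RNA holds a reserve of P-TEFb inactive. The title of the series places P-TEFb in the hypertrophic response to distinct receptors. Whether JQ1 altered the RNA of PE-treated cells, and which genes moved, is the question of this comparison.

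Coverage summed to 2.49 to 2.76 Gb (gigabases) in the 4 PE libraries and to 2.34 to 2.97 Gb in all 12. Values are FPKM summed per gene and rescaled between libraries, called FPKM below, and each pair of values is replicate 1 and replicate 2. The 10 cardiomyocyte markers, such as Tnnt2 and Actn2, were all detected and summed to 20900 and 22900 FPKM with JQ1, against 14700 and 19100 FPKM with DMSO. Tnnt2 alone gave 13220 and 12250 FPKM of the sum with JQ1, against 5454 and 6509 FPKM with DMSO. The higher sum therefore does not describe the markers as a set, of which 2 rose and 3 fell. The 15 fibroblast markers, 13 of which passed the filter on low values, summed to 715 and 190 FPKM with JQ1, against 1060 and 304 FPKM with DMSO. This fibroblast marker sum was therefore higher in replicate 1 than in replicate 2 in both groups. JQ1 libraries gave a lower sum than DMSO libraries of the same number. In bulk RNA, fewer cells of a type and less marker RNA per cell cannot be told apart. PE without JQ1 had changed 3314 (24%) of 13793 tested genes against vehicle, but 837 without the replicate block. Nppb was among the 3314 (log2 difference 2.44, adjusted p = 0.000522).

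JQ1 changed more genes than it left uncalled in PE-treated cells, and the large changes were mostly falls. Of 13793 genes tested with limma and Benjamini-Hochberg adjustment, 3680 (26.7%) were higher and 4102 (29.7%) lower with JQ1, 7782 (56.4%) in all. At least 2-fold rises were called for 339 genes (2.46%) and at least 2-fold falls for 1286 genes (9.32%). At 4-fold, the counts were 22 rises and 177 falls, and at 8-fold 2 rises and 27 falls. All 7782 called genes moved the same way in both pairs, as did 12050 of all 13793 tested genes. A call on 2 pairs nearly requires such agreement, so it is no separate evidence. The 2 pairs' log2 differences correlated at 0.82 across the 13793 genes, a description over genes that share libraries. The model held a term for the replicate number, and without it 2415 genes were higher and 2615 lower. The log2 difference of the median gene was 0.01. Rescaling between libraries holds this value close to no change. Rises and falls are therefore relative, and a shift common to all genes would not be seen.

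**Figure D1:**
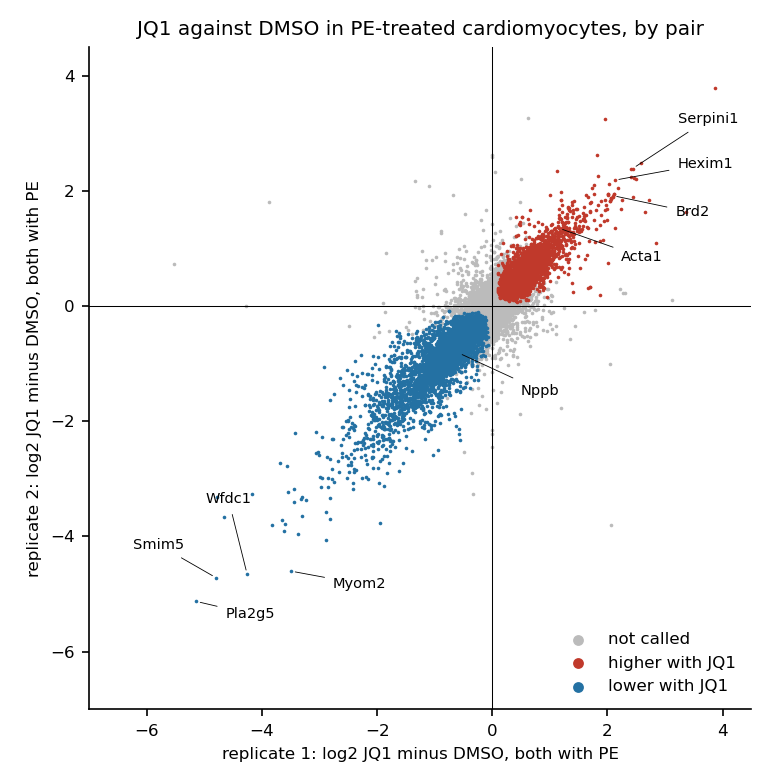
Each point is one of 13793 tested genes, with the log2 difference between JQ1 and DMSO libraries in replicate 1 (x axis) and in replicate 2 (y axis), both in PE-treated cells. Called genes lie in the upper right or lower left, and the tail toward large falls (177 genes of at least 4-fold) is longer than that toward rises (22 genes).

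The 12 largest rises by the naming rule held a regulator of P-TEFb, a BET gene and several metabolic and membrane genes. Serpini1 (ENSRNOG00000010248, chr2:174013288-174111752 on rn6), which encodes the protease inhibitor neuroserpin, had 4.05 and 2.62 FPKM with JQ1, against 0.341 and 0.0960 FPKM with DMSO (log2 difference 2.41 ± 0.11 SE, adjusted p = 8.44e-06). Atp6v1c2, a subunit of the vacuolar proton pump, had 5.48 and 5.55 FPKM with JQ1, against 0.629 and 0.661 FPKM with DMSO, a log2 difference of 2.39, adjusted p = 7.93e-06. Both genes were low with DMSO, and neither pair of groups overlapped. Hexim1 (ENSRNOG00000003203, chr10:91200874-91202984), the inhibitor of P-TEFb, had 96.1 and 81.0 FPKM with JQ1, against 21.6 and 17.4 FPKM with DMSO (log2 difference 2.16 ± 0.12 SE, adjusted p = 1.74e-05). Brd2 (ENSRNOG00000000461, chr20:5262120-5269337), itself a target protein of JQ1, had 63.0 and 60.4 FPKM with JQ1, against 14.4 and 15.6 FPKM with DMSO (log2 difference 2.01 ± 0.07 SE, adjusted p = 5.24e-06). Hexim1 and Brd2 were thus higher in every JQ1 library than in any DMSO library of the PE-treated cells, with log2 differences near 2. Gclc, the catalytic subunit of the enzyme that limits glutathione synthesis, had 57.2 and 87.6 FPKM with JQ1, against 15.6 and 17.8 FPKM with DMSO (log2 difference 2.05, adjusted p = 3.14e-05). Entpd5, a nucleotidase of the endoplasmic reticulum, had 26.8 and 24.1 FPKM with JQ1, against 5.49 and 5.46 FPKM with DMSO (log2 difference 2.12, adjusted p = 8.5e-06), and its interval overlaps Coq6. The other 6 of these genes were Gpr137c (2.54), Hap1 (2.34), Cnnm4 (2.22), Arrdc2 (2.17), Zswim6 (2.08) and Nnat (2.03), with log2 differences in parentheses. None of the 12 lost its call in any alternative tried. However, Gpr137c overlaps Rcor2, Cnnm4 overlaps AABR07067401.3 and Nnat overlaps Gm23134, so that their reads may be shared.

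The 12 largest falls included muscle genes and secreted proteins, and several were close to 0 with JQ1. Pla2g5 (ENSRNOG00000016838, chr5:157247781-157268903), a secreted phospholipase A2, had 0.726 and 0.320 FPKM with JQ1, against 42.8 and 28.1 FPKM with DMSO (log2 difference -5.13 ± 0.26 SE, adjusted p = 1.26e-05). Wfdc1, a secreted protein, had 0.211 and 0 FPKM with JQ1, against 13.1 and 12.1 FPKM with DMSO (log2 difference -4.46, adjusted p = 7.96e-06). Gngt2, a gamma subunit of G proteins, was listed at 0 in both JQ1 libraries and had 12.2 and 5.87 FPKM with DMSO. In each case the higher of the JQ1 values lay far below the lower of the DMSO values. Myom2 (ENSRNOG00000011754, chr16:79587640-79671719), which encodes an M-band protein of the sarcomere, had 5.54 and 1.72 FPKM with JQ1, against 67.5 and 53.5 FPKM with DMSO (log2 difference -4.05 ± 0.48 SE, adjusted p = 0.000279). Casq1 (ENSRNOG00000006930, chr13:90592681-90602365), the skeletal-type calsequestrin that binds calcium in the sarcoplasmic reticulum, had 9.26 and 9.32 FPKM with JQ1, against 71.7 and 163 FPKM with DMSO (log2 difference -3.47 ± 0.37 SE, adjusted p = 0.000172). Dhrs7c, a dehydrogenase of the sarcoplasmic reticulum, had 1.31 and 1.42 FPKM with JQ1, against 22.3 and 24.8 FPKM with DMSO (log2 difference -3.69, adjusted p = 6.6e-06). These 3 muscle genes kept a measurable level with JQ1, between 1.31 and 9.32 FPKM. Tmem182, a membrane protein of muscle, had 1.72 and 2.08 FPKM with JQ1, against 30.8 and 35.7 FPKM with DMSO (log2 difference -3.81, adjusted p = 5.2e-06). Asb4 and Asb9, substrate adaptors of ubiquitin ligases, differed by -3.76 and -3.67 on the log2 scale. Smim5 (-4.76), Olr63 (-4.05) and Wisp2 (-3.71), a matricellular gene, complete the 12. Wisp2, Olr63, Gngt2 and Pla2g5 were higher in replicate 1 than in replicate 2 with DMSO, as fibroblast markers were, and the part of cell makeup in their falls was not tested. The intervals of Smim5 and Asb4 overlap those of Recql5 and of Pon2 and Pon3.

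**Figure D2:**
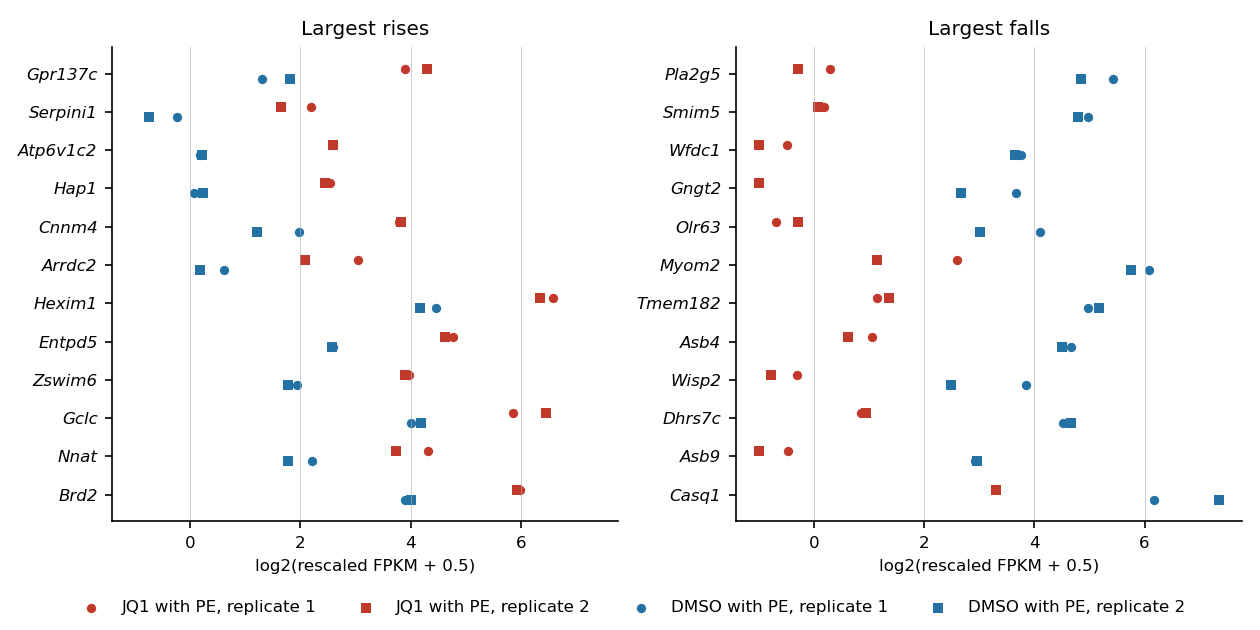
Values of the 12 largest rises (left) and 12 largest falls (right) in the 4 PE libraries, on a log2(rescaled FPKM + 0.5) axis, with JQ1 in red and DMSO in blue, circles for replicate 1 and squares for replicate 2. The 2 colours separate for all 24 genes, and Gngt2 was listed at 0 in both JQ1 libraries.

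Among genes for the release and elongation of RNA polymerase II, rises prevailed. Of 27 genes tested in the list of P-TEFb, the 7SK particle and the super elongation complex, 18 rose and 4 fell. The median log2 difference was 0.34, against 0.01 over all genes. The list also counts Polr2a and Nelfcd, which lie outside these complexes. The rises made up 66.7% of the list, against 26.7% of all genes tested. The P-TEFb list held 2 falls without DMSO replicate 1 or DMSO replicate 2. The falls were also 2 without the replicate block. Polr2a, the largest subunit of RNA polymerase II, had 5.12 and 4.25 FPKM with JQ1, against 1.67 and 1.68 FPKM with DMSO (log2 difference 1.25, adjusted p = 0.000163). Mllt3, a reader subunit of the super elongation complex, had 9.28 and 7.80 FPKM with JQ1, against 3.85 and 4.07 FPKM with DMSO (log2 difference 1.02, adjusted p = 0.000187). The kinase Cdk9 rose less, with 18.8 and 18.4 FPKM with JQ1, against 13.9 and 14.1 FPKM with DMSO (log2 difference 0.40 ± 0.07 SE, adjusted p = 0.0017). The levels of Cdk9 differed by little within a group, so that this change of modest size was still called. Hexim2, the paralog of Hexim1, went the other way with 2.7 and 3.61 FPKM with JQ1, against 7.18 and 8.48 FPKM with DMSO (log2 difference -1.20, adjusted p = 5.03e-05). Nelfcd, a subunit of the negative elongation factor, also fell, by 0.83 on the log2 scale (adjusted p = 0.000348).

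Of the 3 BET genes tested, 1, Brd2, passed the test, and 2 passed in a fit of the 4 PE libraries only. Brd3 had 10.7 and 11 FPKM with JQ1, against 9.12 and 8.86 FPKM with DMSO (log2 difference 0.26, adjusted p = 0.0689). Brd3 differed in the direction of Brd2 and missed the threshold. In a list of 12 genes known from other cells to rise with BET inhibitors, 8 rose and none fell, and 7 rose without the replicate block. The rises made up 66.7% of the list, against 26.7% of all genes, of which 29.7% fell. The list was chosen with earlier results of these data known, so the count is descriptive only. Txnip, an arrestin-type regulator of glucose uptake and redox state, had 147 and 165 FPKM with JQ1, against 69.3 and 72.2 FPKM with DMSO (log2 difference 1.13, adjusted p = 0.0115). Txnip lost its call without JQ1 replicate 2 (adjusted p = 0.0853) and without DMSO replicate 1 (adjusted p = 0.0801).

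The hypertrophy and fetal genes did not move as a group: of 19 tested, 5 rose, 4 fell and 10 were not called, with a median log2 difference of -0.15. Both shares, 26.3% and 21.1%, lay at or under those over all genes (26.7% and 29.7%). PE without JQ1 had raised 10 of the same 19 genes against vehicle, and 1627 of all 13793 genes tested. Nppb, which encodes brain natriuretic peptide, had 1534 and 2425 FPKM with JQ1, against 2300 and 4253 FPKM with DMSO (log2 difference -0.70 ± 0.19 SE, adjusted p = 0.0154). PE cells with JQ1 thus stayed above vehicle cells with DMSO, which had 409.8 and 811 FPKM. Nppa, atrial natriuretic peptide, had 6471 and 10630 FPKM with JQ1, against 6607 and 12830 FPKM with DMSO (log2 difference -0.15, adjusted p = 0.378). The replicates of Nppa spread further than the groups, and no change was called. Acta1 (ENSRNOG00000017786, chr19:56674074-56677084), skeletal alpha-actin, a fetal actin that returns in hypertrophy, had 3738 and 4404 FPKM with JQ1, against 1683 and 1725 FPKM with DMSO (log2 difference 1.25 ± 0.34 SE, adjusted p = 0.0155). JQ1 libraries were the higher ones in both pairs, and PE alone had already raised Acta1 (log2 difference 2.36, adjusted p = 0.00381, with 201 and 547 FPKM in vehicle cells with DMSO). Ankrd1, a stretch-responsive sarcomere protein, had 6293 and 8833 FPKM with JQ1, against 4375 and 6142 FPKM with DMSO (log2 difference 0.52 ± 0.13 SE, adjusted p = 0.00969). Fhl1, a LIM-domain protein of the same kind, had 2342 and 4797 FPKM with JQ1, against 1096 and 1879 FPKM with DMSO (log2 difference 1.22, adjusted p = 0.00128). Acta1, Ankrd1 and Fhl1 were therefore all higher with JQ1 on top of PE in both pairs. These calls were lost in some alternatives. Nppb lost its call without the replicate block (adjusted p = 0.365), without JQ1 replicate 2 (adjusted p = 0.102), without DMSO replicate 1 (adjusted p = 0.0672) and without DMSO replicate 2 (adjusted p = 0.0783). Acta1 lost its call without the replicate block (adjusted p = 0.089), without JQ1 replicate 1 (adjusted p = 0.099) and without DMSO replicate 2 (adjusted p = 0.124). Ankrd1 lost its call without the replicate block (adjusted p = 0.327), without JQ1 replicate 1 (adjusted p = 0.0638) and without DMSO replicate 2 (adjusted p = 0.0785). Fhl1 lost its call without the replicate block (adjusted p = 0.247).

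The alpha and beta cardiac myosin heavy chains were not called. Myh6, the adult alpha chain of the rat ventricle, had 556 and 865 FPKM with JQ1, against 638 and 836 FPKM with DMSO (log2 difference -0.07, adjusted p = 0.755). Myh7, the fetal beta chain, had 1445 and 2239 FPKM with JQ1, against 1924 and 2321 FPKM with DMSO (log2 difference -0.23, adjusted p = 0.227). Neither difference exceeded the spread between replicates, and the near-identical copies may share reads. Acta2, smooth muscle alpha-actin, was lower with 66.4 and 40.4 FPKM with JQ1, against 127 and 105 FPKM with DMSO (log2 difference -1.15, adjusted p = 0.000511). Hopx, a small homeodomain cofactor of cardiac growth, had 7.76 and 6.44 FPKM with JQ1, against 15.9 and 12.9 FPKM with DMSO (log2 difference -0.97, adjusted p = 0.0106), and Ctgf, a matricellular protein, had 173 and 243 FPKM with JQ1, against 330.5 and 474 FPKM with DMSO (log2 difference -0.95, adjusted p = 0.00932). Uchl1, a deubiquitinase, rose by 0.81 (adjusted p = 0.0062). Of the 19 genes, 1 rose and 2 fell without the replicate block. The hypertrophy list held 3 rises without JQ1 replicate 1 or DMSO replicate 2 and 2 falls without JQ1 replicate 2, DMSO replicate 1 or DMSO replicate 2. Hopx lost its call without JQ1 replicate 2 (adjusted p = 0.0628) and without DMSO replicate 1 (adjusted p = 0.0697). Ctgf lost its call without the replicate block (adjusted p = 0.0722) and without DMSO replicate 2 (adjusted p = 0.0566). Uchl1 lost its call without JQ1 replicate 2 (adjusted p = 0.0546).

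Promoters of 3 of the genes described are shown because Acta1 rose while Nppb and Pla2g5 fell, and each window holds the letters CATTCC of the M-CAT element, the site of TEAD factors in muscle promoters. The windows run from 150 bases before to 20 bases into the RefSeq gene start on GRCr8, a later build than rn6, in the direction of the gene, with CATTCC or its reverse complement GGAATG and the TATA box letters TATAAA in capitals.
Acta1 (chr19:68784175-68784344, - strand): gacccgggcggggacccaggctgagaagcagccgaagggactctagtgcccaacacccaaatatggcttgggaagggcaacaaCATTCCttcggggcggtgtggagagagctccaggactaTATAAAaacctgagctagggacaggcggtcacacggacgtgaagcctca
Nppb (chr5:163699858-163700027, + strand): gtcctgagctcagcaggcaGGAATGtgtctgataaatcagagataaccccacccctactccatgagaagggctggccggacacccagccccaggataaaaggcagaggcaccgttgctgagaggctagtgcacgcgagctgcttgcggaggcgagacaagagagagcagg
Pla2g5 (chr5:156345903-156346072, - strand): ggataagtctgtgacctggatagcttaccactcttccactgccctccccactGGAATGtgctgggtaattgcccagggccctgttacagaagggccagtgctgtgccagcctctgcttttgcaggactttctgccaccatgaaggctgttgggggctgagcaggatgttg
In Acta1 the M-CAT letters start 67 bases before the gene start and a TATA box 29 bases before it. In Nppb and Pla2g5 the M-CAT letters lie on the other strand, 131 and 98 bases before the start. Of 33469 RefSeq promoters of 300 bases, 14.19% held CATTCC on either strand and 14.22% held TATAAA. A RefSeq promoter was found for 13 of the 24 genes of largest change, of which Entpd5 and Pla2g5 held CATTCC, one that rose and one that fell. Shares over all called genes are not given, because 64.3% of tested genes matched a promoter by symbol.

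**Figure D3:**
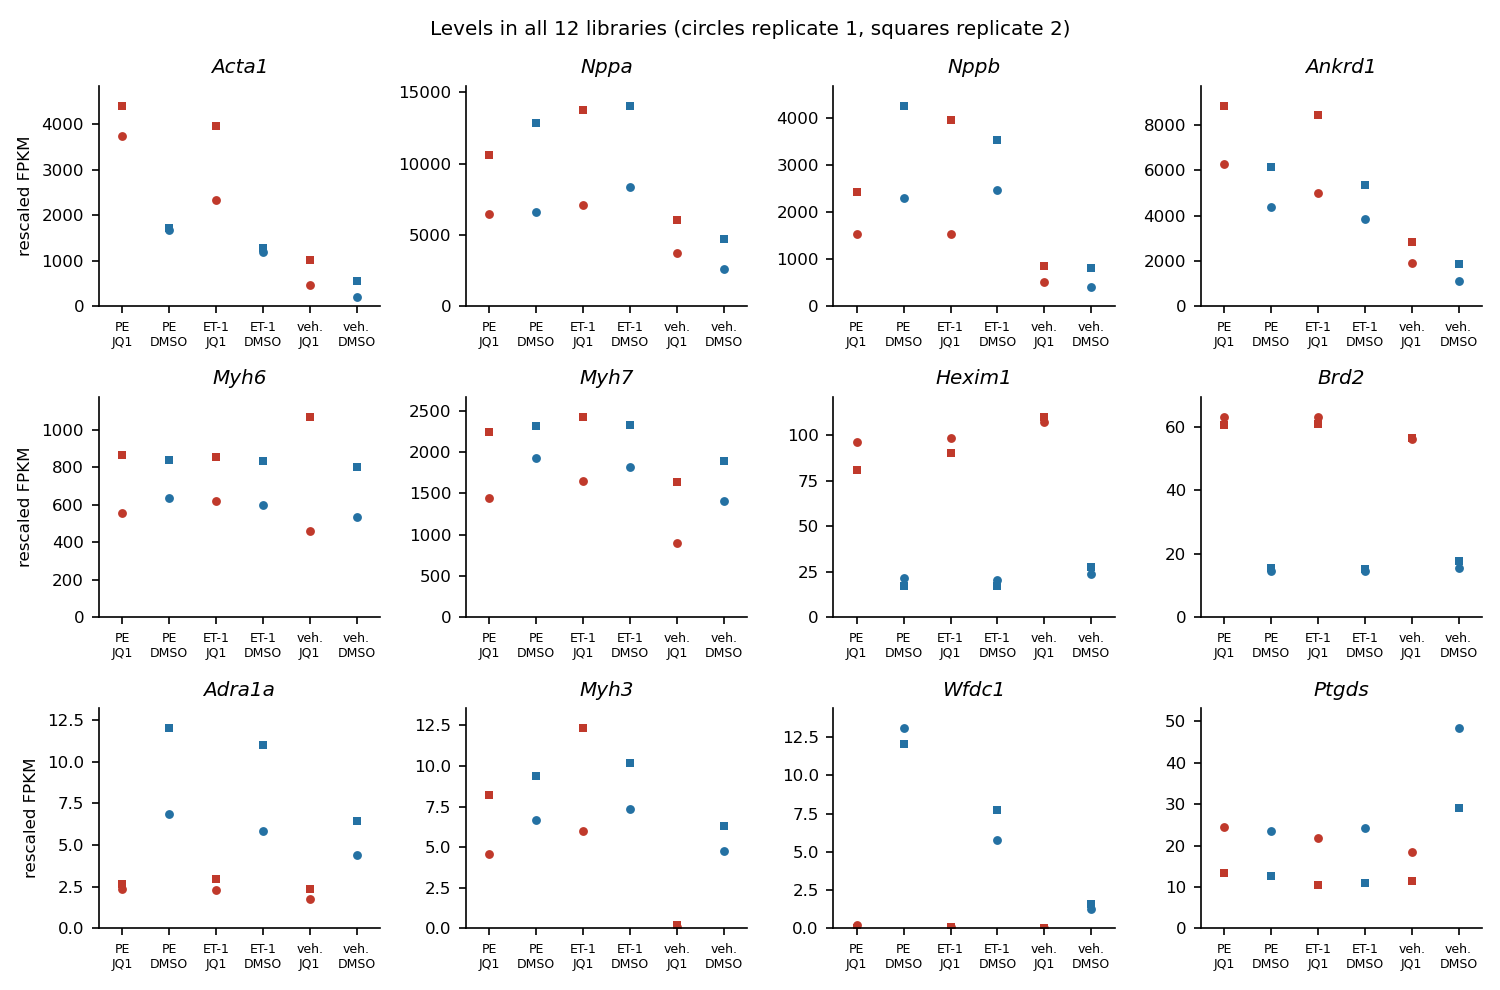
Rescaled FPKM of 12 genes in all 12 libraries, with JQ1 libraries in red and DMSO libraries in blue, circles for replicate 1 and squares for replicate 2, each on an axis from 0. Acta1 and Ankrd1 were higher with JQ1 than with DMSO in both PE pairs, Nppb was lower, and Myh3 was near 0 in both vehicle libraries with JQ1.

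Sarcomere genes were called in both directions. Of 29 tested, 8 rose and 13 fell, 9 of the falls at least 2-fold, and 2 and 8 did without the replicate block. The shares that rose and fell, 27.6% and 44.8%, compare with 26.7% and 29.7% of all genes, and the share that rose was near that over all genes. The sarcomere list held 5 rises without JQ1 replicate 1. Tnnt2, cardiac troponin T, was among the most abundant messages and had 13220 and 12250 FPKM with JQ1, against 5454 and 6509 FPKM with DMSO (log2 difference 1.09 ± 0.19 SE, adjusted p = 0.0018). Tnni3, the adult cardiac troponin I, had 741 and 875 FPKM with JQ1, against 1758 and 2308 FPKM with DMSO (log2 difference -1.32, adjusted p = 0.000607). Subunits of the same troponin complex thus went opposite ways, and in both cases the groups did not overlap. Lmod3, an actin filament nucleator of striated muscle, had 0.221 and 0.259 FPKM with JQ1, against 5.31 and 4.08 FPKM with DMSO (log2 difference -2.80, adjusted p = 1.7e-05). Mybphl, a myosin-binding protein of the atria and conduction system, had 0.299 and 0.386 FPKM with JQ1, against 3.75 and 6.92 FPKM with DMSO (log2 difference -2.74, adjusted p = 2.44e-05). Together with Myom2 these were the largest falls of the list. Cryab, a small chaperone bound to desmin, had 1387 and 2395 FPKM with JQ1, against 841 and 1137 FPKM with DMSO (log2 difference 0.90, adjusted p = 0.00188), and Fbxo32, the ubiquitin ligase atrogin-1, rose by 0.72 (adjusted p = 0.00738). Cryab lost its call without the replicate block (adjusted p = 0.122). Fbxo32 lost its call without JQ1 replicate 1 (adjusted p = 0.0594) and without DMSO replicate 1 (adjusted p = 0.0667).

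Calcium handling and ion channel genes mostly fell or were not called: 17 of 33 fell, 10 of them at least 2-fold, and 1 rose, with a median log2 difference of -0.45. The falls made up 51.5% of the list, against 29.7% of all genes, of which 9.32% fell at least 2-fold. Without the replicate block 11 fell, and 14 to 17 fell when one PE library was left out. Kcnj11, the pore of the ATP-sensitive potassium channel, had 4.37 and 3.29 FPKM with JQ1, against 20.1 and 22.8 FPKM with DMSO (log2 difference -2.35 ± 0.19 SE, adjusted p = 5.4e-05). Hrc, a calcium-binding protein of the sarcoplasmic reticulum, had 2.10 and 0.878 FPKM with JQ1, against 8.78 and 6.31 FPKM with DMSO (log2 difference -2.07, adjusted p = 0.000837). The ryanodine receptor Ryr2, which releases calcium at each beat, had 30.7 and 32.3 FPKM with JQ1, against 46.0 and 55.4 FPKM with DMSO (log2 difference -0.67, adjusted p = 0.00654). With Casq1, these genes cover storage and release of calcium and membrane potential, and all 4 were lower in both JQ1 libraries. Of 23 cardiac transcription factors, 6 rose and 6 fell, close to the shares over all genes. Irx3, an Iroquois factor of the conduction system, had 4.27 and 2.21 FPKM with JQ1, against 15.8 and 15.1 FPKM with DMSO (log2 difference -2.15, adjusted p = 6.88e-05). Tead4, which binds M-CAT elements, had 1.35 and 1.73 FPKM with JQ1, against 4.53 and 5.28 FPKM with DMSO (log2 difference -1.41, adjusted p = 8.22e-05). Hand2, a basic helix-loop-helix factor of the ventricles, had 48.9 and 42.1 FPKM with JQ1, against 22.9 and 26.6 FPKM with DMSO (log2 difference 0.86, adjusted p = 0.000654), and Hey2 rose by 0.84 (adjusted p = 0.000198). Rises numbered 3 and falls 4 without the replicate block. The list of factors held 2 rises without JQ1 replicate 1 and 3 rises without DMSO replicate 1 or DMSO replicate 2.

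The receptor for PE and the pathway below it were altered in both directions. Adra1a (ENSRNOG00000009522, chr15:43298794-43392451), the alpha-1A adrenergic receptor, had 2.34 and 2.68 FPKM with JQ1, against 6.84 and 12 FPKM with DMSO (log2 difference -1.67 ± 0.17 SE, adjusted p = 0.000124). Adra1b, the alpha-1B receptor, had 3.55 and 2.73 FPKM with JQ1, against 5.54 and 4.61 FPKM with DMSO (log2 difference -0.62, adjusted p = 0.0199). Adra1d did not pass the filter on low values. The JQ1 values of both tested receptors lay below all DMSO values. Of 35 genes tested in the alpha-1 adrenergic and Gq pathway list, 12 rose and 13 fell, against 9 and 9 without the replicate block. The list is broader than its name and also counts the beta-1 receptor Adrb1. These shares, 34.3% and 37.1%, were somewhat above those over all genes. Rgs3, which shortens Gq signals, had 1.3 and 0.6 FPKM with JQ1, against 6.36 and 2.79 FPKM with DMSO (log2 difference -1.76, adjusted p = 4.32e-05). Camk2a, a calcium-dependent kinase of low level here, had 0.284 and 0.457 FPKM with JQ1, against 3.78 and 3.59 FPKM with DMSO (log2 difference -2.27, adjusted p = 2.36e-05). Itpr1, an IP3 receptor of the endoplasmic reticulum, went up with 18.4 and 16.8 FPKM with JQ1, against 9.86 and 8.26 FPKM with DMSO (log2 difference 0.92, adjusted p = 0.000205). Adrb1, the beta-1 adrenergic receptor, had 11.2 and 10.5 FPKM with JQ1, against 5.74 and 6.16 FPKM with DMSO (log2 difference 0.82, adjusted p = 0.00331), and Prkd1, protein kinase D1, rose by 0.80 (adjusted p = 0.00105). The alpha-1 and beta-1 receptors therefore differed in direction. Adra1b lost its call without JQ1 replicate 2 (adjusted p = 0.121), without DMSO replicate 1 (adjusted p = 0.104) and without DMSO replicate 2 (adjusted p = 0.0638).

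Feedback genes of the ERK pathway fell more often than they rose: 9 of 16 ERK feedback and Pea3 ETS genes fell and 2 rose, with a median log2 difference of -0.54. The shares that rose and fell were 12.5% and 56.2%, against 26.7% and 29.7% of all genes. Falls numbered 5 and rises 1 without the replicate block. The ERK list held 1 rise without JQ1 replicate 1, DMSO replicate 1 or DMSO replicate 2. Etv4, a Pea3 factor induced by ERK, had 0.997 and 0.621 FPKM with JQ1, against 9.77 and 8.53 FPKM with DMSO (log2 difference -2.89 ± 0.15 SE, adjusted p = 1.48e-05). PE without JQ1 had raised Etv4 against vehicle (log2 difference 1.5, adjusted p = 0.00121). Spry1, a feedback inhibitor of receptor tyrosine kinase signals, had 12.9 and 9.39 FPKM with JQ1, against 30.7 and 30.9 FPKM with DMSO (log2 difference -1.45, adjusted p = 0.000247). Etv1, of the same Pea3 group, had 1.75 and 1.28 FPKM with JQ1, against 7.02 and 8.52 FPKM with DMSO (log2 difference -2.04, adjusted p = 7.29e-05). All 3 were lower in every JQ1 library than in any DMSO library. Immediate early and AP-1 genes leaned the other way, with 9 of 19 higher (47.4%, against 26.7% of all genes) and 3 lower, and 4 and 1 without the replicate block. Jund, a subunit of AP-1, had 219 and 289.8 FPKM with JQ1, against 78.6 and 98.6 FPKM with DMSO (log2 difference 1.51 ± 0.10 SE, adjusted p = 2.54e-05). Maff, a small Maf factor, had 3.68 and 3.05 FPKM with JQ1, against 9.10 and 11.6 FPKM with DMSO (log2 difference -1.48, adjusted p = 0.000283). Nr4a2, an orphan nuclear receptor, rose by 0.94 (adjusted p = 0.000199).

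Of 16 cAMP and CREB target genes, 5 fell (31.2%, against 29.7% of all genes, a share near it) and 1 rose, with 2 falls and 1 rise without the replicate block. The CREB list held 2 falls without JQ1 replicate 2 or DMSO replicate 2. Rgs2, another brake on Gq signals, had 18.5 and 12.7 FPKM with JQ1, against 35.3 and 37.9 FPKM with DMSO (log2 difference -1.23, adjusted p = 0.000777). Among 23 targets of SRF and YAP, 7 rose and 8 fell, near the shares over all genes. Cnn1, calponin of smooth muscle, had 36.9 and 45.9 FPKM with JQ1, against 112 and 164 FPKM with DMSO (log2 difference -1.71 ± 0.17 SE, adjusted p = 0.000135). Thbs1, a matricellular protein, had 34.4 and 46.7 FPKM with JQ1, against 93.0 and 128 FPKM with DMSO (log2 difference -1.43, adjusted p = 0.00899). Tpm1, the striated and smooth muscle tropomyosin, was higher with 8739 and 10280 FPKM with JQ1, against 5350 and 6795 FPKM with DMSO (log2 difference 0.65, adjusted p = 0.00596). PE without JQ1 had raised Cnn1 by 1.84, Thbs1 by 1.49 and Tpm1 by 0.82 on the log2 scale (adjusted p = 0.000911, 0.0205 and 0.00786). The PE and JQ1 comparisons share the PE libraries with DMSO, so their values are only set side by side. Without the replicate block 1 of these targets rose and 4 fell. The SRF and YAP list held 1 rise without DMSO replicate 2 and 3 rises without JQ1 replicate 1. Thbs1 lost its call without JQ1 replicate 1 (adjusted p = 0.062) and without DMSO replicate 2 (adjusted p = 0.0691). Tpm1 lost its call without the replicate block (adjusted p = 0.145), without JQ1 replicate 1 (adjusted p = 0.0509) and without DMSO replicate 2 (adjusted p = 0.0533).

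Secreted growth factors and peptides were lower with JQ1 in most cases: 22 of 33 fell, 12 of them at least 2-fold, and 1 rose, with a median log2 difference of -0.78. The falls made up 66.7% of the list, against 29.7% of all genes tested. There were 10 falls and no rise without the replicate block, and 16 to 19 fell without one PE library. The secreted list held 0 rises without JQ1 replicate 1, DMSO replicate 1 or DMSO replicate 2. Fgf1, acidic fibroblast growth factor, had 3.10 and 1.93 FPKM with JQ1, against 25.1 and 31.1 FPKM with DMSO (log2 difference -3.26 ± 0.31 SE, adjusted p = 9.51e-05). Inhba, which encodes the activin A subunit, had 1.40 and 1.07 FPKM with JQ1, against 9.25 and 10.8 FPKM with DMSO (log2 difference -2.60, adjusted p = 3.64e-05). Tgfb3, a TGF-beta ligand, had 24.9 and 22.8 FPKM with JQ1, against 78.8 and 106 FPKM with DMSO (log2 difference -1.92, adjusted p = 0.000498). Inhba and Tgfb3 had been raised by PE in DMSO cells, by 1.18 and 0.87 on the log2 scale (adjusted p = 0.00562 and 0.0434), while Fgf1 had been lowered by PE (-1.23, adjusted p = 0.0255). NF-kB, chemokine and cytokine genes showed 9 falls and 3 rises among 22 (40.9% fell, against 29.7% of all genes), and 5 falls and 1 rise without the replicate block. The NF-kB list held 1 rise without DMSO replicate 2. Ccl20, a chemokine for lymphocytes, had 4.18 and 5.14 FPKM with JQ1, against 27.7 and 23.7 FPKM with DMSO (log2 difference -2.35, adjusted p = 0.000365). Sod2, the mitochondrial superoxide dismutase, rose by 0.49 (adjusted p = 0.00358). Interferon response genes showed 10 falls and 2 rises among 17 (58.8% fell), but 3 falls and no rise without the replicate block. Ddx58, the RNA sensor RIG-I, had 0.795 and 0.561 FPKM with JQ1, against 2.78 and 1.90 FPKM with DMSO (log2 difference -1.26, adjusted p = 0.000443). The 14 macrophage markers summed to 12.6 and 3.48 FPKM with JQ1, against 21.4 and 7.43 FPKM with DMSO, and their part in the falls of cytokine and interferon genes was not tested.

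Cell cycle genes gave one of the most one-sided counts: 33 of 40 fell, 20 of them at least 2-fold, and 3 rose, with a median log2 difference of -1.0. The falls made up 82.5% of the list, against 29.7% of all genes tested. Without the replicate block 32 fell and 3 rose, and without one PE library 31 to 33 fell. The cell cycle list held 0 rises without DMSO replicate 2 and 1 rise without JQ1 replicate 1 or DMSO replicate 1. Mcm3, a subunit of the replicative helicase, had 5.21 and 3.12 FPKM with JQ1, against 22 and 19.8 FPKM with DMSO (log2 difference -2.23 ± 0.21 SE, adjusted p = 9.45e-05). Mcm6, of the same helicase, had 6.43 and 3.92 FPKM with JQ1, against 23.3 and 21.9 FPKM with DMSO (log2 difference -2.06, adjusted p = 0.000371). Ccnd1, cyclin D1 of the entry into the cycle, had 8.62 and 3.08 FPKM with JQ1, against 36.5 and 14.9 FPKM with DMSO (log2 difference -2.06, adjusted p = 2.67e-05). For Ccnd1 replicate 1 was higher than replicate 2 in both groups, as fibroblast markers were. Mcm3 and Mcm6 were also higher in replicate 1 with JQ1, and were nearly level between replicates with DMSO. Cdkn1a, the inhibitor p21, was higher with 171 and 222 FPKM with JQ1, against 103 and 84.5 FPKM with DMSO (log2 difference 1.06, adjusted p = 0.00653). Which cells of the culture carry these transcripts was not tested. In the Myc network, Myc itself had 3.83 and 10.6 FPKM with JQ1, against 2.49 and 3.59 FPKM with DMSO (log2 difference 0.99, adjusted p = 0.0722), with JQ1 replicate 2 above the other 3 libraries. Myc was called in a limma fit of the 4 PE libraries only (adjusted p = 0.0352). Mxi1, an antagonist of Myc that binds Max, had 19.8 and 21.7 FPKM with JQ1, against 5.92 and 5.5 FPKM with DMSO (log2 difference 1.77 ± 0.11 SE, adjusted p = 2.11e-05), and Mxd1, of the same family, had 8.50 and 7.64 FPKM with JQ1, against 3.29 and 2.62 FPKM with DMSO (log2 difference 1.32, adjusted p = 1.38e-05). In all, 4 of 11 network genes rose and 1 fell, with 2 and 0 without the replicate block. These shares were 36.4% and 9.1%, against 26.7% and 29.7% of all genes. The Myc network list held 2 rises without JQ1 replicate 1 or DMSO replicate 2 and 0 falls without JQ1 replicate 2, DMSO replicate 1 or DMSO replicate 2. Cdkn1a lost its call without JQ1 replicate 2 (adjusted p = 0.0563) and without DMSO replicate 2 (adjusted p = 0.0507).

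Mitochondrial energy genes were lower as well. Of 33 nuclear genes for oxidative phosphorylation, 24 fell (72.7%, against 29.7% of all genes) and none rose (against 26.7%), with a median log2 difference of -0.62 and 22 falls without the replicate block. Leaving out one PE library gave 21 to 24 falls. Ndufs3, a subunit of complex I, had 87.0 and 93.7 FPKM with JQ1, against 164 and 194 FPKM with DMSO (log2 difference -0.98 ± 0.09 SE, adjusted p = 6.83e-05). Cox7a1, the heart and skeletal muscle isoform of a complex IV subunit, had 2.21 and 1.54 FPKM with JQ1, against 6.92 and 5.32 FPKM with DMSO (log2 difference -1.48, adjusted p = 0.000124). Most falls of this list were below 2-fold, and 1 reached it. Of 32 fatty acid oxidation genes, 18 fell (56.2%, against 29.7% of all genes) and 2 rose. The fatty acid oxidation list held 1 rise without JQ1 replicate 2 or DMSO replicate 2. Cpt1b, the muscle carnitine palmitoyltransferase that admits fatty acids to mitochondria, had 6.46 and 8.43 FPKM with JQ1, against 35.8 and 37.5 FPKM with DMSO (log2 difference -2.24 ± 0.22 SE, adjusted p = 0.000117). Acot2, a mitochondrial thioesterase, had 5.57 and 5.51 FPKM with JQ1, against 26.3 and 20.9 FPKM with DMSO (log2 difference -1.99, adjusted p = 3.95e-05), and Plin2, which coats lipid droplets, had 23.1 and 9.20 FPKM with JQ1, against 74.0 and 40.2 FPKM with DMSO (log2 difference -1.86, adjusted p = 0.000205). Acadvl, the very long chain acyl-CoA dehydrogenase, was higher by 0.51 (adjusted p = 0.00257).

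Among 24 glycolysis genes, 12 fell (50%, against 29.7% of all genes) and 3 rose, against 7 and 1 without the replicate block. The glycolysis list held 0 rises without JQ1 replicate 1 or DMSO replicate 1 and 1 rise without DMSO replicate 2. Pgam2, the muscle phosphoglycerate mutase, had 14.2 and 10.4 FPKM with JQ1, against 77.7 and 47.9 FPKM with DMSO (log2 difference -2.28, adjusted p = 0.000145). Eno3, the muscle enolase, had 142 and 92.6 FPKM with JQ1, against 381 and 357 FPKM with DMSO (log2 difference -1.68, adjusted p = 0.00133), and Slc2a4, the insulin-responsive glucose transporter, had 10.7 and 7.82 FPKM with JQ1, against 25.8 and 23.1 FPKM with DMSO (log2 difference -1.37, adjusted p = 0.0016). These 3 genes had the largest falls of the list, each lower in both JQ1 libraries than in both DMSO libraries. Sterol synthesis genes gave 12 falls and no rise among 23 (52.2% fell), but the pairs differed in size. Fdps, farnesyl diphosphate synthase, had 384 and 126 FPKM with JQ1, against 574 and 553 FPKM with DMSO (log2 difference -1.36, adjusted p = 0.0277). For Fdps JQ1 replicate 2 was far lower than JQ1 replicate 1, while the DMSO replicates were level. The sterol list held 2 falls without JQ1 replicate 2 or DMSO replicate 2. Without the replicate block 3 sterol genes fell, and 6 with no filter on low values. PE without JQ1 had raised 16 of the 23 sterol genes against vehicle, and 1627 of all 13793 genes tested. Fdps lost its call without the replicate block (adjusted p = 0.186), with no filter on low values (adjusted p = 0.0572), with only the compared libraries (adjusted p = 0.0696), without JQ1 replicate 2 (adjusted p = 0.177) and without DMSO replicate 2 (adjusted p = 0.212).

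Chaperones were mostly higher: 11 of 17 heat shock genes rose (64.7%, against 26.7% of all genes) and 4 fell, and 7 and 3 did without the replicate block. Hspb6, a small heat shock protein of muscle, had 70.1 and 76.6 FPKM with JQ1, against 22.9 and 26.5 FPKM with DMSO (log2 difference 1.55 ± 0.21 SE, adjusted p = 0.000537). Hspb3, another of the same family, had 52.4 and 79.5 FPKM with JQ1, against 217 and 315 FPKM with DMSO (log2 difference -2.01 ± 0.20 SE, adjusted p = 0.000124). Members of one small family thus changed in opposite directions, without overlap of the groups. Hspa1a, the inducible Hsp70, had 23.5 and 13.8 FPKM with JQ1, against 9.29 and 7.27 FPKM with DMSO (log2 difference 1.09, adjusted p = 0.000584). The mitochondrial chaperonin gene Hspe1 was lower with 173 and 269 FPKM with JQ1, against 347 and 327 FPKM with DMSO (log2 difference -0.64, adjusted p = 0.0145). Hspe1 lost its call with only the compared libraries (adjusted p = 0.0568), without JQ1 replicate 1 (adjusted p = 0.11) and without DMSO replicate 1 (adjusted p = 0.118).

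Matrix genes and markers of other cell types were lower in most cases, and these calls rest on the pairing. Of 35 collagen and matrix genes, 23 fell (65.7%, against 29.7% of all genes) and 2 rose, but 4 fell and none rose without the replicate block. The matrix list held 1 rise without JQ1 replicate 1 or DMSO replicate 1. Lox, which crosslinks collagen, had 1.01 and 0.405 FPKM with JQ1, against 5.14 and 3.29 FPKM with DMSO (log2 difference -1.98 ± 0.13 SE, adjusted p = 2.85e-05). Adamts1, a matrix protease, had 6.11 and 4.15 FPKM with JQ1, against 20.5 and 15.3 FPKM with DMSO (log2 difference -1.72, adjusted p = 5.48e-05). Fibroblast markers showed 11 falls among 13 (84.6%, against 29.7% of all genes), none of them without the replicate block. The fibroblast list held 6 falls without DMSO replicate 1 and 7 falls without JQ1 replicate 2. Postn, periostin, had 117 and 14.3 FPKM with JQ1, against 222 and 36.8 FPKM with DMSO (log2 difference -1.12, adjusted p = 0.000386, adjusted p = 0.622 without the block). Its replicates differed more than its groups, as the summed fibroblast markers did (715 and 190 FPKM with JQ1, against 1060 and 304 FPKM with DMSO). Their part in the falls of matrix genes was not tested. Of 7 endothelial markers 5 fell and 1 rose, and of 7 macrophage markers 5 fell. Of 11 smooth muscle and pericyte markers 9 fell and 1 rose. These falls made up 71.4%, 71.4% and 81.8% of the 3 lists, against 29.7% of all genes. Without the block, the falls were 0, 0 and 4. The 12 endothelial markers found summed to 16.4 and 9.12 FPKM with JQ1, against 23.5 and 8.44 FPKM with DMSO. The 12 smooth muscle markers summed to 2290 and 2390 FPKM with JQ1, against 1890 and 2090 FPKM with DMSO, so their sum was higher although 9 of the 11 tested fell. Their median was lower, with 6.72 and 4.32 FPKM with JQ1, against 14.2 and 8.44 FPKM with DMSO. Des, which encodes desmin, was the marker that rose (log2 difference 0.556). The sum therefore does not describe a typical marker of this list. For macrophage markers the fit without DMSO replicate 1 gave 3 falls, and so did that without DMSO replicate 2. Egfl7, an endothelial secreted protein, was the endothelial marker that rose, with 7.51 and 7.35 FPKM with JQ1, against 3.60 and 2.77 FPKM with DMSO (log2 difference 1.11, adjusted p = 0.000476). Cspg4, the NG2 proteoglycan of pericytes, had 7.38 and 7.04 FPKM with JQ1, against 28.3 and 32.8 FPKM with DMSO (log2 difference -2.0, adjusted p = 3.73e-05). Cspg4 was level between replicates, unlike the fibroblast markers. Of the 10 cardiomyocyte markers, 2 rose and 3 fell (20% and 30%, near the 26.7% and 29.7% of all genes). The cardiomyocyte list held 1 rise without JQ1 replicate 1 or DMSO replicate 1.

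**Figure D4:**
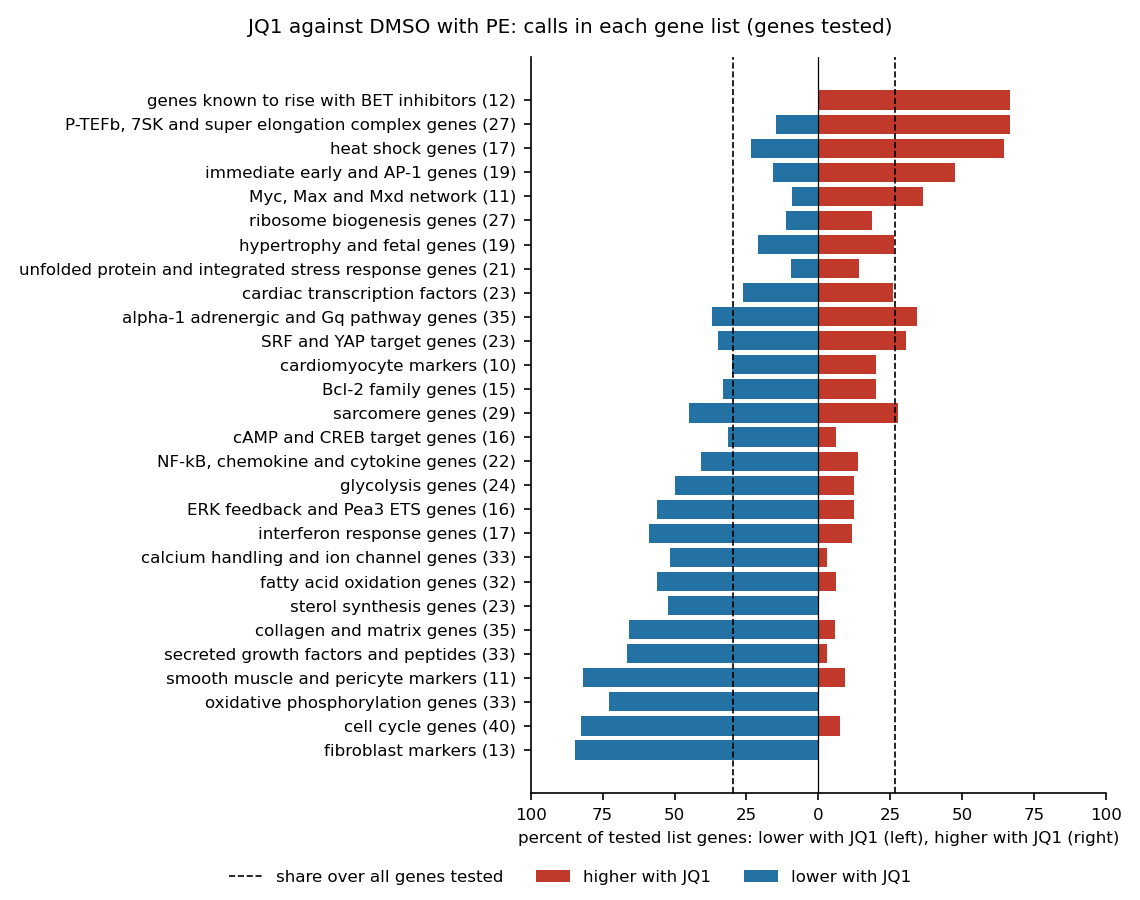
For each gene list with at least 10 tested genes (number in parentheses), bars give the percent of its genes called lower with JQ1 (blue, to the left) and higher (red, to the right) in PE-treated cells, and dashed lines give the shares over all 13793 tested genes, 29.7% and 26.7%. The bars to the left were longest for fibroblast markers, cell cycle genes (82.5%) and smooth muscle markers, and those to the right for genes known to rise with BET inhibitors and the P-TEFb list (66.7%).

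Genes that answer to a hypertrophic agonist were also set apart with libraries that the PE comparison does not use. ET-1 against vehicle, both with DMSO, changed 2537 genes (18.4% of those tested), but 396 without the replicate block. The sets below therefore rest on the pairing. Of the 1226 genes that ET-1 raised, JQ1 lowered 599 and raised 208 in PE-treated cells, with a median log2 difference of -0.27. These falls were 48.9% and these rises 17.0% of the set, against 29.7% and 26.7% of all genes. Of the 162 genes raised at least 2-fold by ET-1, 104 were lower and 7 higher with JQ1, with a median of -0.80, the falls being 64.2% of the set. Of the 1311 genes that ET-1 lowered, 520 rose and 364 fell with JQ1, with a median of 0.11. Here 27.8% fell, near the share over all genes, and 39.7% rose. In the 141 genes lowered at least 2-fold, 22 rose and 68 fell, with a median of -0.54, the falls being 48.2% of the set. Falls outnumbered rises both among genes raised and among genes lowered at least 2-fold by ET-1. Acta1, Ankrd1 and Fhl1 were among the genes raised by ET-1 that were higher with JQ1 in PE-treated cells.

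The same JQ1 treatment was given to vehicle cells, in libraries that the PE comparison does not share. JQ1 changed 52.8% of tested genes there. Across the 13793 genes the JQ1 effect with PE and the JQ1 effect with vehicle correlated at 0.85, a description over genes fitted in one model. Called in both and in the same direction were 6085 genes, which is 78.19% of the calls with PE and 83.6% of those with vehicle, and 14 genes were called in opposite directions. Hexim1 had 107 and 109.8 FPKM with JQ1, against 23.6 and 27.6 FPKM with DMSO in vehicle cells, and Brd2 had 56.2 and 56.4 FPKM with JQ1, against 15.5 and 17.7 FPKM with DMSO. Both rises were therefore present with and without the agonist. Pla2g5 had 1.93 and 1.40 FPKM with JQ1, against 42.2 and 37.1 FPKM with DMSO in vehicle cells, and Acta1 had 466 and 1026 FPKM with JQ1, against 201 and 547 FPKM with DMSO.

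A test of the difference between the 2 JQ1 effects called 10 genes (0.0725%), 5 in each direction, and none without the replicate block, where 717 had an unadjusted p under 0.05 against 1716 with it. Every one of the 8 libraries moved these counts, with 0 to 2 genes higher and 0 to 7 lower when one was left out. The genes below are therefore given mainly by their values. Myh3, the embryonic myosin heavy chain, had 4.57 and 8.21 FPKM with JQ1, against 6.65 and 9.39 FPKM with DMSO in PE cells. In vehicle cells Myh3 had 0.0927 and 0.209 FPKM with JQ1, against 4.78 and 6.28 FPKM with DMSO (difference of log2 effects 2.87 ± 0.24 SE, adjusted p = 0.0157). JQ1 thus brought Myh3 near 0 in vehicle cells, whereas the PE groups overlapped. The ET-1 groups overlapped too, with 6.02 and 12.3 FPKM with JQ1, against 7.35 and 10.2 FPKM with DMSO. Ptgds, a prostaglandin D synthase, had 24.4 and 13.4 FPKM with JQ1, against 23.6 and 12.8 FPKM with DMSO in PE cells and 18.5 and 11.4 FPKM with JQ1, against 48.4 and 29.0 FPKM with DMSO in vehicle cells (difference of log2 effects 1.39 ± 0.15 SE, adjusted p = 0.035). Each vehicle library with DMSO stood above the other libraries of its replicate number for Ptgds. Wfdc1 was near 0 in all JQ1 libraries, and its DMSO level was 13.1 and 12.1 FPKM with PE and 1.27 and 1.62 FPKM with vehicle (difference of log2 effects -2.57 ± 0.28 SE, adjusted p = 0.035). From that vehicle level a larger fall could not be measured, so the Wfdc1 call gives no difference in response. In 3 more genes the difference was negative as well. Ift43, of the intraflagellar transport machinery, had 34 and 38.0 FPKM with JQ1, against 112 and 146 FPKM with DMSO in PE cells and 34.8 and 42.3 FPKM with JQ1, against 56.3 and 72.9 FPKM with DMSO in vehicle cells (difference of log2 effects -1.08 ± 0.10 SE, adjusted p = 0.0275). Ccdc107 had 73.3 and 95.6 FPKM with JQ1, against 134 and 187 FPKM with DMSO in PE cells and 45.2 and 65.1 FPKM with JQ1, against 42.3 and 63.3 FPKM with DMSO in vehicle cells (difference of log2 effects -0.98 ± 0.11 SE, adjusted p = 0.0413). Nxnl2, a nucleoredoxin-like gene, had 5.17 and 3.81 FPKM with JQ1, against 16.6 and 12.5 FPKM with DMSO in PE cells and 10.9 and 8.05 FPKM with JQ1, against 19.6 and 13.4 FPKM with DMSO in vehicle cells (difference of log2 effects -0.83 ± 0.09 SE, adjusted p = 0.035). In Wfdc1, Ift43 and Ccdc107 the DMSO level was higher with PE than with vehicle, and JQ1 libraries with PE lay below it. With ET-1, Ift43 had 41.7 and 53.5 FPKM with JQ1, against 112 and 137 FPKM with DMSO. Ccdc107 had 74.7 and 121 FPKM with JQ1 and ET-1, against 123 and 175 FPKM with DMSO and ET-1. The test against ET-1 below called none of the genes named here, so none is called particular to PE. Ccdc107 was not lower with JQ1 in vehicle cells, and its interval overlaps Arhgef39. The intervals of Myh3 and Ift43 overlap AABR07029830.1 and RF00001, so that reads may be shared there as well.

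**Figure D5:**
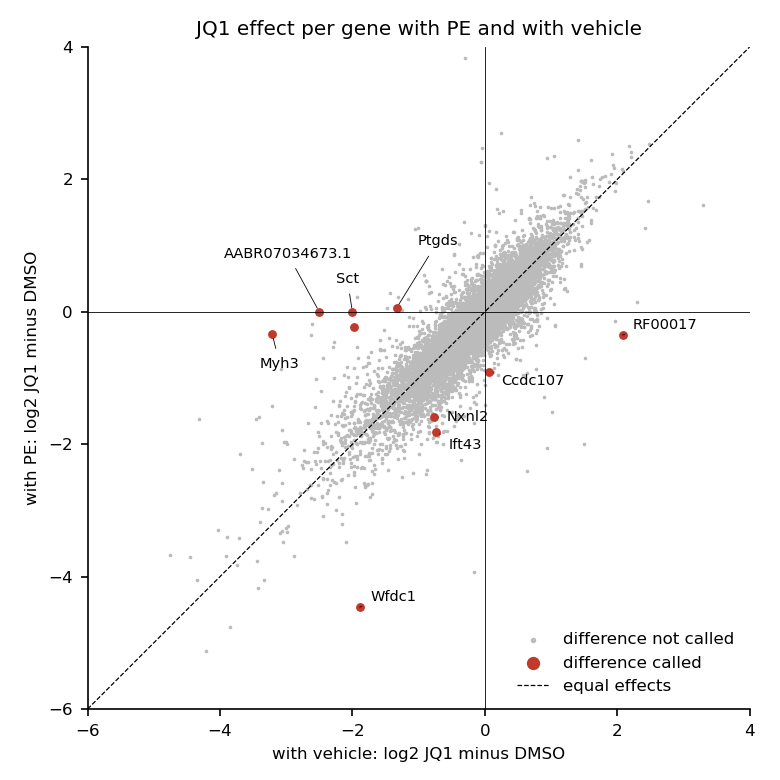
Each point is one of 13793 genes, with the log2 difference between JQ1 and DMSO in vehicle cells (x axis) and in PE cells (y axis), and the dashed line marks equal effects. Red points are the 10 genes called in the test of the difference, with Wfdc1 below the line and Myh3 above it.

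Against the JQ1 effect in ET-1-treated cells, the test of the difference called 1 gene (0.00725%). It is AABR07034673.1, an unnamed gene of 321 nt on chromosome 11 that lies outside the naming rule and was singled out after its values were seen. It was listed at 0 in the 4 PE libraries, in both ET-1 libraries with JQ1 and in both vehicle libraries with JQ1, and had 2.50 and 2.33 FPKM with ET-1 and DMSO. With PE it was at 0 in JQ1 and DMSO libraries alike, so no JQ1 effect could be measured there. The call was absent without the replicate block, where 117 genes had an unadjusted p under 0.05 (its adjusted p = 0.056). Hexim1 had 98.2 and 90.2 FPKM with JQ1, against 20.3 and 17.0 FPKM with DMSO in ET-1 cells and Nppb had 1541 and 3961 FPKM with JQ1, against 2473 and 3530 FPKM with DMSO.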

How the data were processed

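RNA of 12 libraries was depleted of ribosomal RNA and made into strand-specific libraries, per the labels' protocols. Trim Galore 0.6.0, STAR 2.7.1a and StringTie 1.3.4d with build rn6 (Rnor_6.0) are named per the submitters' processing notes. How strand was set in quantification was not given in the sources used, so overlapping and antisense genes cannot be told apart. The authors deposited 1 table of 41078 annotated transcripts per library, with FPKM and mean coverage per base per the file headers. Deposited coverage times transcript length was used here as depth only. FPKM was summed over 32883 genes and rescaled between libraries by the median of ratios (factors 0.873 to 1.127). The 8641 genes under 400 nt took 53.3% to 69.8% of deposited FPKM, which moves all other values and is why libraries were rescaled. No counts were used, so low genes carry more error than the test sees.

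log2(rescaled FPKM + 0.5) of 13793 genes with at least 1 FPKM in at least 2 libraries was fitted with limma 3.58.1 in R 4.3.3 (trend and robust), with 6 group means and the replicate number as a block. Thresholds are Benjamini-Hochberg adjusted p under 0.05. Log2 differences on this scale understate changes of low genes. Replicate numbers come from the titles, and deviations from group means correlated between same-numbered libraries in all 15 pairs of groups (0.155 to 0.671, and 0.593 for the groups compared), so they were taken as pairs. The steps were tested on simulated data. Members and the 31 gene lists were chosen with earlier results of these data known. Genes named are the 12 largest rises and falls (mean of at least 3 FPKM in the higher group, at least 400 nt, no placeholder name), up to 3 rises and 3 falls called per list, 15 fixed genes and the called differences under the same filters. Alternatives were another pseudocount, filter, rescaling, block or set of libraries, and leaving out each library. Some genes that the rule names are not reported here. Promoters are RefSeq sequences on GRCr8, matched by symbol. Tables and plots were made with Python 3.11.15, pandas 2.3.3, numpy 2.4.6 and matplotlib 3.10.9.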

Additional observations from a re-analysis of the deposited data

Results flagged for a closer look

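The JQ1 effect differed between PE-treated and vehicle-treated cells in 10 genes, by the test of the difference itself, and none of these calls held without the replicate block. Myh3 (2.87 on the log2 scale) and Ptgds (1.39) had positive differences, the JQ1 effect being less negative with PE or absent. Wfdc1 (-2.57), Ift43 (-1.085), Ccdc107 (-0.98) and Nxnl2 (-0.83) had negative differences, the JQ1 effect being more negative with PE. For Wfdc1, vehicle cells had only 1.27 and 1.62 FPKM with DMSO, and 0 and 0.0497 FPKM with JQ1. A larger fall could not be measured from that level, so the Wfdc1 call gives no difference in response. A further 3 genes are named after their values were seen. Sct, secretin, differed by 2.0, and was listed at 0 in the 4 PE libraries, while in vehicle cells it had 0 and 0 FPKM with JQ1, against 1.39 and 1.63 FPKM with DMSO. AABR07034673.1, also listed at 0 in the 4 PE libraries, differed by 2.50, and in vehicle cells it had 0 and 0 FPKM with JQ1, against 2.30 and 2.35 FPKM with DMSO. With PE, Sct and AABR07034673.1 were at 0 with DMSO as well as with JQ1, so no JQ1 effect could be measured and these 2 calls give no difference in response. A copy of RF00017, the signal recognition particle RNA family, differed by -2.43, with 280.0 and 489.6 FPKM with JQ1, against 337 and 660.3 FPKM with DMSO in PE cells and 294 and 486 FPKM with JQ1, against 86.0 and 92.3 FPKM with DMSO in vehicle cells. The RF00017 value is uncertain, since that family has many near-identical copies.

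Between PE-treated and ET-1-treated cells the test called AABR07034673.1 alone (2.54 on the log2 scale). That gene was at 0 in the 4 PE libraries, so the call says only that it was absent there and gives no measured JQ1 effect with PE.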

How the results depend on the processing

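All 24 genes of largest change kept their call in every alternative. Of 168 called genes named by the rule, 72 lost the call in at least 1 alternative, 55 of them without the replicate block and 46 of them without one library, and none of the 177 reversed. Without the replicate block 2415 genes were higher and 2615 lower with JQ1 in PE-treated cells, against 3680 and 4102. Leaving out one library gave 2568 to 2772 higher and 3173 to 3516 lower genes. The other alternatives kept both counts within 1.5 times. With deposited FPKM, not rescaled, 41.28% of calls were higher. For the difference between the JQ1 effects with PE and with vehicle (5 genes higher, 5 lower), limma called 0 and 0 without the replicate block, 2 and 2 at a pseudocount of 0.1, 9 higher at a pseudocount of 1 and 9 higher with no filter. Only the compared libraries gave 1 and 0, and leaving out one library 0 to 2 higher and 0 to 7 lower. For the difference between PE and ET-1 (1 higher, 0 lower), there were 0 higher without the replicate block, 4 higher and 2 lower with no filter, 0 higher with only the compared libraries, and 0 to 2 in each direction without one library. The cause of these shifts was not tested. With 2 libraries per group and no read counts, small changes of low genes are not detectable here.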

Other observations

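Genes of ribosome biogenesis divided: of 27 tested, 5 rose and 3 fell with JQ1 in PE-treated cells, fewer than the shares over all genes. Npm1, nucleophosmin, had 225 and 242 FPKM with JQ1, against 165 and 158 FPKM with DMSO (log2 difference 0.53, adjusted p = 0.0187). Polr1c, a subunit of RNA polymerases I and III, had 40.7 and 44.8 FPKM with JQ1, against 54.9 and 77.8 FPKM with DMSO (log2 difference -0.61, adjusted p = 0.00553). Without JQ1 replicate 2 the list held 1 rise, without DMSO replicate 1 it held 3 and without DMSO replicate 2 it held 2, and the falls came to 1 without JQ1 replicate 1 or DMSO replicate 1. Npm1 lost its call without JQ1 replicate 2 (adjusted p = 0.13), without DMSO replicate 1 (adjusted p = 0.092) and without DMSO replicate 2 (adjusted p = 0.073).

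Of 15 Bcl-2 family genes, 3 rose and 5 fell (20% and 33.3%, near the 26.7% and 29.7% of all genes), and 3 fell without the replicate block, without JQ1 replicate 1 or without DMSO replicate 1. Bcl2l11, the death-promoting protein Bim, had 18.5 and 14.5 FPKM with JQ1, against 6.23 and 5.51 FPKM with DMSO (log2 difference 1.41, adjusted p = 0.00117). Bik, another member of the BH3-only group, had 2.15 and 0.772 FPKM with JQ1, against 5.34 and 4.63 FPKM with DMSO (log2 difference -1.58, adjusted p = 0.000932).

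Of 21 unfolded protein and integrated stress response genes, 3 rose and 2 fell (14.3% and 9.5%, under the shares over all genes), with 1 rise without the replicate block, without JQ1 replicate 2 or without DMSO replicate 1. Ddit3, the stress factor CHOP, had 106 and 102 FPKM with JQ1, against 43.0 and 34.5 FPKM with DMSO (log2 difference 1.42, adjusted p = 0.000368). JQ1 replicate 2 stood above JQ1 replicate 1 for Myc in ET-1-treated cells too, where Myc had 3.75 and 13.8 FPKM with JQ1, against 2.37 and 2.76 FPKM with DMSO.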
